A study of Daphnia magna with 20 samples.

Results

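The targets described here are the transcripts of the water flea Daphnia magna whose typical level at the higher dose of lithium cobalt oxide (LCO) stood above their level in each of the other 3 groups of the study. Levels are in CPM, the estimated count of a target per 1000000 estimated counts of its library. Each group was summarised by its median CPM plus 0.5 over 5 libraries. A target was kept where LCO at 10 mg/L reached 1.5 times LCO at 1 mg/L, 1.5 times the ions and 1.5 times control, with a value of at least 2. The rule found 181 members among 26646 targets (0.679%), so a limit of 200 members was not reached. All 181 also had enough counts to be tested, as had 16163 targets in all.

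Daphnia magna is a small freshwater crustacean that filters particles from the water into its gut and is widely used as a test organism for pollutants. LCO is a layered cathode material of lithium-ion batteries that sheds lithium and cobalt ions in water. Excess cobalt is known to displace other metal ions from proteins and to promote oxidative stress. An ion group of this kind separates exposure to dissolved metal from exposure to metal together with particles.

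All animals were of the strain labelled WT, 5 days old at the start, and were exposed for 48 h in moderately hard water with food. The first group received LCO at 10 mg/L, the second LCO at 1 mg/L, the third 66 µg/L lithium and 15 µg/L cobalt as their chlorides, and the control water without an addition. Each group had 5 libraries, and each library came from 10 pooled whole animals. Total estimated counts per library ran from 20744445 to 44181066. LCO 10 mg/L replicate 1 carries a treatment tag that reads untreated, while its title places it at 10 mg/L, and it is counted there. In whole animals a change in the amount of a tissue and a change in RNA per cell cannot be told apart. No label tells if pools were kept in vessels of their own, so p-values measure the spread between pools. None of the 26646 identifiers matched the gene table used here (0 matches), so members are given by identifier, without gene name, function, genome position or sequence.

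The values that chose the members are a description and carry no test. The median CPM of a member ran from 1.67 to 25116 at LCO 10 mg/L, with a median over members of 10.1. The corresponding medians over members were 3.36 at LCO 1 mg/L, 3.57 in the ions and 2.36 in control, and 63 members had a control median under 1 CPM. At the median of the members, the ratio of LCO 10 mg/L was 2.14 over LCO 1 mg/L, 2.5 over the ions and 3.26 over control. The smallest of a member's 3 ratios ran from 1.5 to 8.26, with a median of 1.79. It reached 2 in 65 members and 4 in 9 members. The group next below LCO 10 mg/L was LCO 1 mg/L for 105 members, the ions for 66 and control for 10. Members held 4.66% to 5.61% of all counts of the LCO 10 mg/L libraries and 1.30% to 3.77% of the LCO 1 mg/L libraries. They held 0.675% to 2.69% of the ion libraries and 1.14% to 2.54% of the control libraries. A large part of the share at LCO 10 mg/L came from 1 member, KZS10820, with 17663 to 26836 CPM there.

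The working label of the set says that these targets were raised only at 10 mg/L, and single libraries went against it. For each member the lowest LCO 10 mg/L library was set against the 15 libraries of the other groups. In 32 members (17.7%) none of the 15 reached it, and all 5 LCO 10 mg/L libraries lay above every other library. Over all tested targets that separation held for 54, or 0.334%, and the rule itself favours it. A further 59 members were reached by 1 or 2 other libraries, 72 by 3 to 5 and 18 by 6 to 10. These libraries were not spread evenly. LCO 1 mg/L replicate 5 reached the lowest LCO 10 mg/L library in 96 members, against 17 to 26 in the other LCO 1 mg/L libraries. Among the ion libraries, replicates 5, 6 and 3 did so in 72, 69 and 59 members, and replicates 1 and 4 in 6 and 5. In control, replicates 1 and 4 did so in 60 and 33 members, and replicates 6, 2 and 5 in 13, 4 and 2. LCO 1 mg/L replicate 5, ion replicate 5 and control replicate 1 lay nearer to the mean of another group than to that of their own over all tested targets. With these 3 left out, 50 members (27.6%) were separate from the 12 libraries left, and 0.637% of tested targets.

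**Figure D1:**
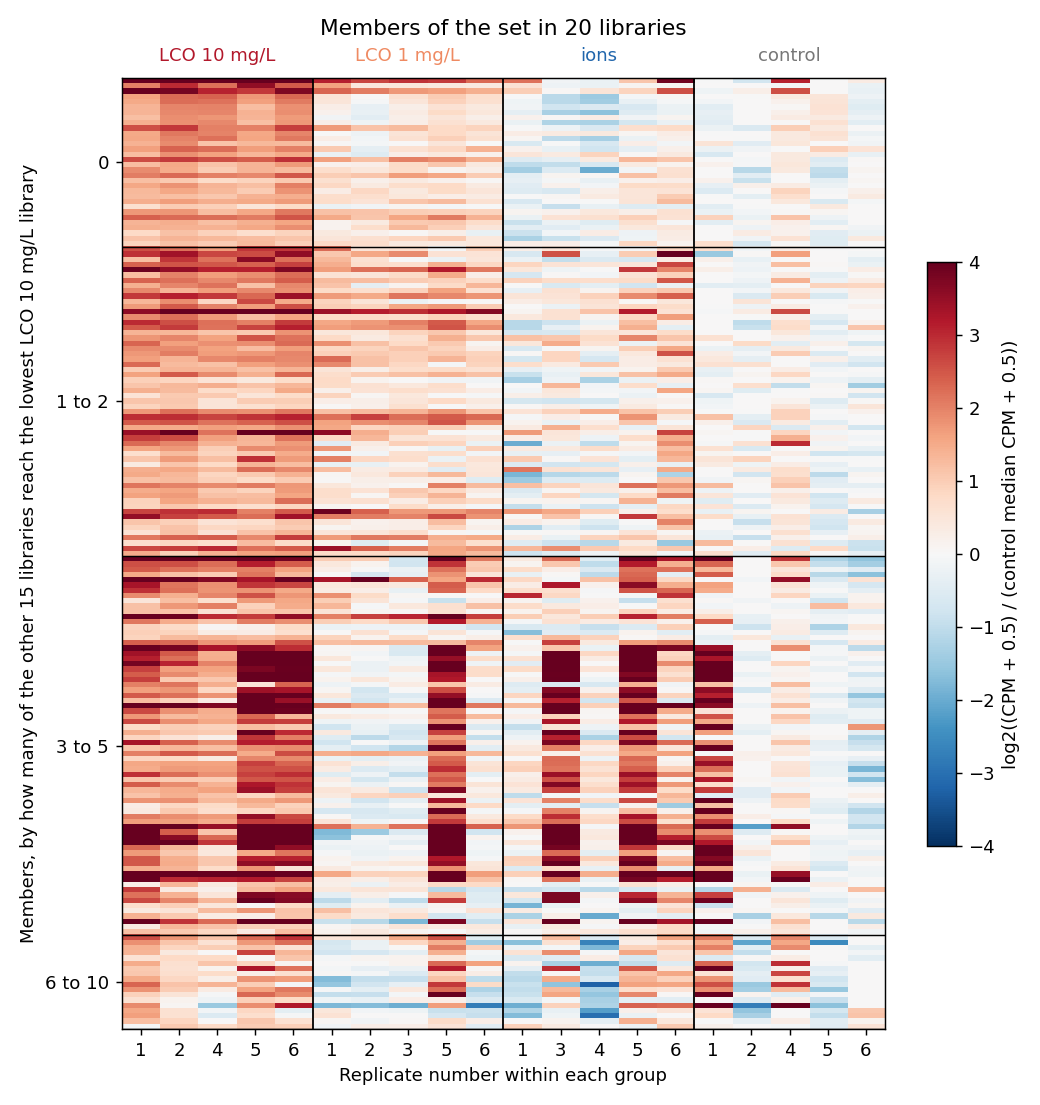
Each row is 1 of the 181 members and each column 1 of the 20 libraries; colour gives the log2 ratio of CPM + 0.5 to the control median, with values beyond 4 in either direction drawn in the end colours. Rows are grouped by how many of the other 15 libraries reach the lowest LCO 10 mg/L library, and in the group reached by 3 to 5 libraries many red blocks of LCO 1 mg/L replicate 5, ion replicates 3 and 5 and control replicate 1 are as dark as those of LCO 10 mg/L.

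The level of the set in a library was taken as the median over members of log2((CPM + 0.5)/(control median + 0.5)). In LCO 10 mg/L replicates 1, 2, 4, 5 and 6 it was 1.62, 1.66, 1.39, 1.77 and 1.94. In LCO 1 mg/L replicates 1, 2, 3, 5 and 6 it was 0.44, 0.23, 0.35, 1.29 and 0.42. The ion libraries ran from -0.01 to 0.81, with replicates 5 and 6 at 0.81 and 0.74, and the control libraries from -0.15 to 0.37. The group means were 1.68 ± 0.2 at LCO 10 mg/L, 0.55 ± 0.42 at LCO 1 mg/L, 0.38 ± 0.39 in the ions and 0.08 ± 0.2 in control (SD, n = 5 libraries each). The LCO 10 mg/L libraries lay above the rest, a direction that the choice of members favours, and LCO 1 mg/L replicate 5 came nearest to them.

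The rule was then applied without 1 library at a time, and the chosen targets were read in the library that had taken no part in the choice. The measure was the share of the chosen targets that stood in it at 1.5 times or more the highest of the LCO 1 mg/L, ion and control medians. In LCO 10 mg/L replicates 1, 2, 4, 5 and 6 that share was 67.3%, 60.5%, 42.0%, 61.2% and 80.6%. Over all tested targets the same measure gave 5.01%, 1.91%, 1.31%, 2.51% and 2.62% in these libraries. In each LCO 10 mg/L library many of the targets chosen without it stood at that ratio, and replicate 4 had the lowest share. The LCO 1 mg/L, ion and control medians in the measure took part in the choice, which favours low ones. The shares of chosen targets are raised by this, and those over all tested targets are not. LCO 1 mg/L replicate 5 had 46.0%, and the other LCO 1 mg/L libraries 2.75% to 20.2%. Ion replicates 5, 3 and 6 had 46.5%, 39.5% and 30.3%, against 3.15% in replicate 1 and 0.794% in replicate 4. Control replicate 1 had 30.4%, replicate 4 had 11.7%, and the other control libraries 0.588% to 3.43%. The list of targets differs from library to library, so these shares do not rank libraries on 1 set. On the 181 members themselves, 155 stood at 1.5 times or more the control median in LCO 10 mg/L replicate 4. The counts were 137 in LCO 1 mg/L replicate 5, 104 in ion replicate 6 and 102 in ion replicate 5. The rule favours this order, since it set LCO 10 mg/L above control by that ratio.

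**Figure D2:**
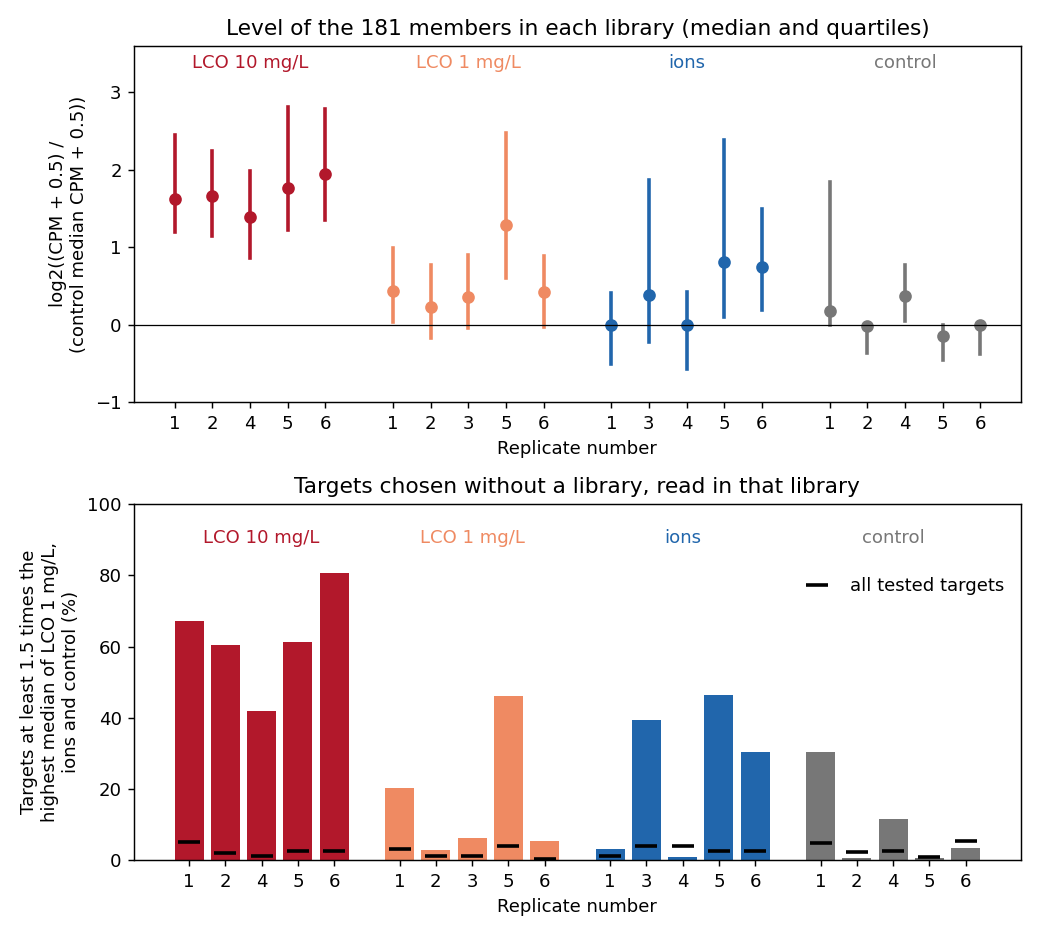
The upper panel gives the median (point) and quartiles (line) of the level of the 181 members in each library on a log2 scale, with the groups in colour. The lower panel gives the percent of targets chosen without a library that stood in that library at 1.5 times or more the highest median of LCO 1 mg/L, ions and control (bar), beside the same percent over all tested targets (dash); LCO 10 mg/L replicate 4 has 42.0%, LCO 1 mg/L replicate 5 has 46.0% and ion replicate 5 has 46.5%, each on a list of its own.

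The 32 separate members are those that no library of another group reached, whether or not they also differed among the other groups. Their median ratio of LCO 10 mg/L was 1.96 over LCO 1 mg/L, 3.34 over the ions and 3.29 over control, and LCO 1 mg/L was the next highest group at the median. The largest distance from the lowest LCO 10 mg/L library to the highest other library belonged to KZS15439, at 0.73 on the log2 scale. In replicate order KZS15439 had 46.8, 70.2, 64.5, 47.4 and 63.0 CPM at LCO 10 mg/L and 15.8, 13.9, 23.1, 28.0 and 23.1 CPM at LCO 1 mg/L. It had 19.7, 20.7, 20.8, 17.0 and 19.8 CPM in the ions, and 15.8, 15.9, 21.2, 24.3 and 13.5 CPM in control. The 3 other groups overlapped with each other, and the exposed libraries at 10 mg/L stood apart from all of them. KZR97950 was second by this distance, at 0.72. It had 88.5, 139, 131, 98.5 and 126 CPM at LCO 10 mg/L and 28.3 to 53.6 CPM, median 44.6, at LCO 1 mg/L. The ions had 34.6 to 47.4 CPM, median 40.9, and the control libraries 28.8 to 49.4 CPM, median 38.2. For both members replicates 2, 4 and 6 were the higher ones at LCO 10 mg/L, and replicates 1 and 5 the lower ones.

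The most abundant members by CPM were separate as well, but in them the ions were also called below control. KZS10820 alone had 17663, 25962, 26836, 17945 and 25116 CPM at LCO 10 mg/L and 7825, 5648, 8687, 11624 and 9386 CPM at LCO 1 mg/L. It had 5346, 2812, 2235, 4773 and 5735 CPM in the ions, and 5509, 6896, 7859, 9979 and 5318 CPM in control. No other library came up to the LCO 10 mg/L range, and ion replicates 3 and 4 were the lowest of all. KZR99912 had 4700, 7761, 7435, 5085 and 6971 CPM at LCO 10 mg/L and 2287, 1579, 2289, 3115 and 2553 CPM at LCO 1 mg/L. It had 1447, 780, 629, 1336 and 1588 CPM in the ions, and 1516, 1641, 1864, 2336 and 1253 CPM in control. As for KZS10820, ion replicates 3 and 4 were lowest and LCO 1 mg/L replicate 5 was highest outside LCO 10 mg/L. In the edgeR test described below, the log2 change in the ions against control was -0.82 (adjusted p 0.013) for KZS10820. It was -0.63 (adjusted p 0.04) for KZR99912. Against the ions, LCO 1 mg/L was higher by 1.05 (adjusted p 0.0038 in edgeR) for KZS10820 and 1.03 (adjusted p 0.0031 in edgeR) for KZR99912. Per length the order of the pair turns round, since KZR99912 is the shorter target. Its median was 27970.5 TPM at LCO 10 mg/L, against 4877 TPM for KZS10820, where TPM is the deposited length-scaled abundance.

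In other members the medians stood far apart and single libraries did not. KZS05168 had 1640, 990, 680, 836 and 532 CPM at LCO 10 mg/L and 71.5, 73.5, 45.7, 1311 and 209.6 CPM at LCO 1 mg/L. It had 78.3, 145, 57.5, 1134 and 958 CPM in the ions, and 767, 69.0, 249.9, 65.6 and 33.5 CPM in control. Its smallest ratio of medians, 5.76, was the second largest of the set, and yet LCO 1 mg/L replicate 5, ion replicates 5 and 6 and control replicate 1 lay within the LCO 10 mg/L range. KZS19005 had the largest smallest ratio, 8.26. It had 6.72, 10.4, 2.51, 17.4 and 10.4 CPM at LCO 10 mg/L and 7.38, 1.32, 0.814, 0.159 and 0.151 CPM at LCO 1 mg/L. It had 1.65, 0.426, 0.289, 0.239 and 3.85 CPM in the ions, and 0.207, 0.155, 0.707, 0.118 and 0.164 CPM in control. LCO 10 mg/L lay above every control library, and LCO 1 mg/L replicate 1 and ion replicate 6 were the 2 libraries that reached it.

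Some members varied widely within the 10 mg/L group. KZS08924 had the largest SD of log2(CPM + 0.5) there, 3.31. Its levels were 134, 35.8, 14.1, 3056 and 1356 CPM at LCO 10 mg/L, and 1.48, 1.93, 3.96, 173 and 3.36 CPM at LCO 1 mg/L. It had 7.12, 2715, 8.19, 1688 and 24.5 CPM in the ions, and 23.3, 4.16, 6.41, 6.21 and 5.45 CPM in control. LCO 10 mg/L replicates 5 and 6 and ion replicates 3 and 5 were of the same order, and the remaining libraries had 173 CPM or less. KZS08039, second by SD at 2.27, ran from 15.4 to 781 CPM at LCO 10 mg/L, median 102, and from 0.542 to 89.6 CPM at LCO 1 mg/L, median 2.61. In the ions it ran from 2.73 to 452 CPM, median 27.7, and in control from 2.17 to 19.4 CPM, median 2.74, with the high libraries the same as for KZS08924. The ions entered the rule for this pair through a middle library, replicate 6, and without ion replicate 1, 4 or 6 neither target would be a member. The smallest SDs at LCO 10 mg/L were 0.103 for KZS10595 and 0.12 for KZS20249. KZS20249 had 24.4, 28.1, 24.0, 25.1 and 28.9 CPM at LCO 10 mg/L and 14.5, 12.8, 19.1, 21.0 and 13.4 CPM at LCO 1 mg/L. It had 5.31, 8.56, 8.48, 12.3 and 21.1 CPM in the ions, and 8.52, 8.63, 11.5, 5.47 and 8.03 CPM in control, all below LCO 10 mg/L. KZS10595 had 21.9 to 26.0 CPM at LCO 10 mg/L, 13.6 to 21.0 CPM at LCO 1 mg/L, 3.81 to 12.2 CPM in the ions and 6.91 to 15.0 CPM in control, and its counts were fractional in all 20 libraries.

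**Figure D3:**
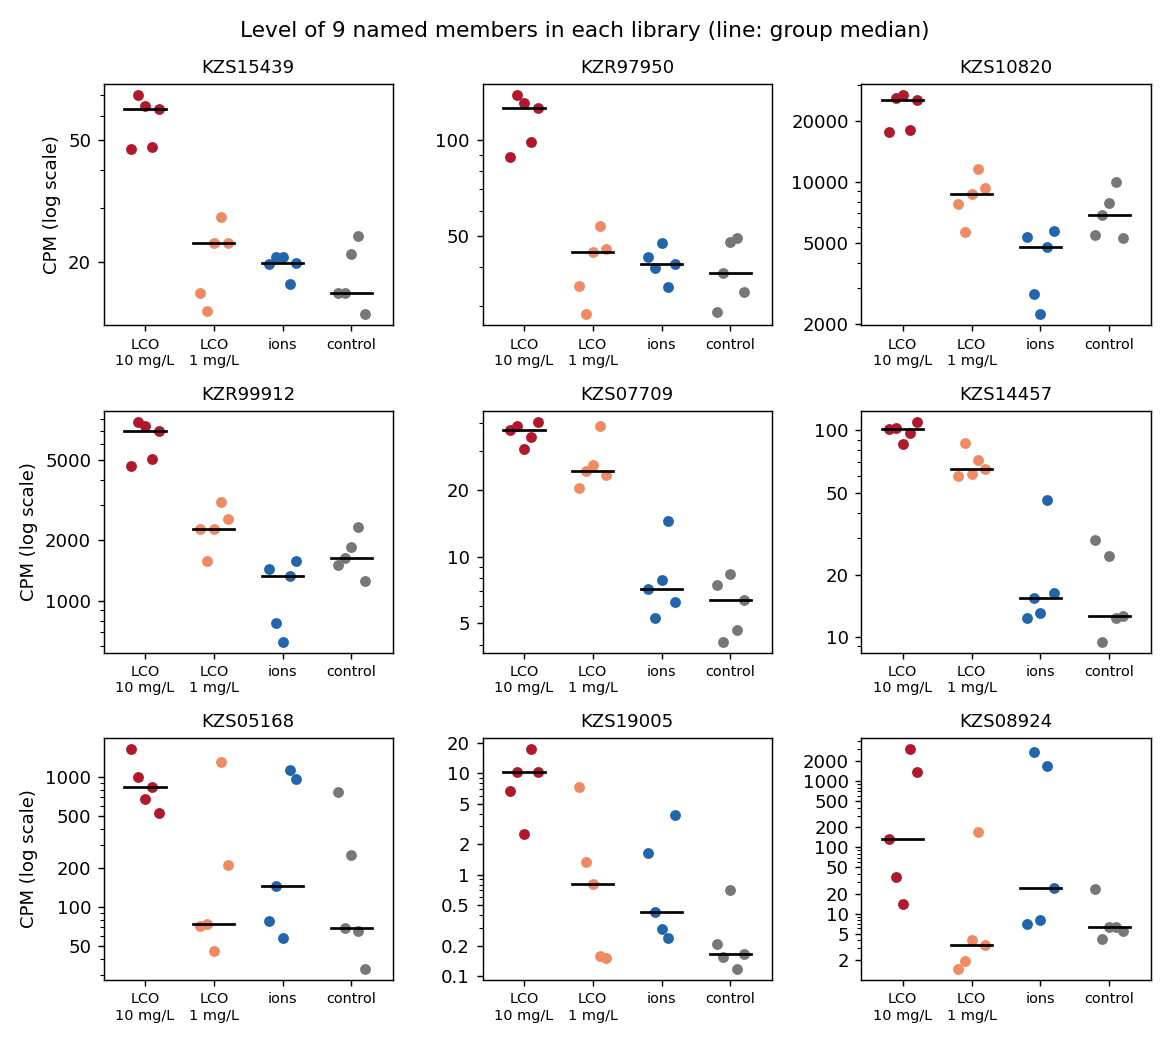
CPM of 9 members in every library on log axes that differ between panels, with groups from left to right and a line at each group median; within a group the points follow the replicate numbers. In the first 4 panels the LCO 10 mg/L points lie above the rest, whereas for KZS05168 and KZS08924 single libraries of other groups lie among them.

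The high libraries outside LCO 10 mg/L shared their members. A member was counted as high in a library where it stood 4 times or more above the median of the other libraries of its group, a limit chosen after the values were seen. That held for 54 members (29.8%) in LCO 1 mg/L replicate 5, 46 (25.4%) in ion replicate 5, 34 (18.8%) in ion replicate 3 and 49 (27.1%) in control replicate 1. Over all tested targets the shares in these libraries were 2.24%, 0.897%, 0.538% and 2.0%. LCO 1 mg/L replicate 5 and control replicate 1 had 46 members in common, 85.2% of those high in LCO 1 mg/L replicate 5 and 93.9% of those high in control replicate 1. For LCO 1 mg/L replicate 5 and ion replicate 5, 36 were in common, 66.7% and 78.3% of each list. Ion replicate 5 and control replicate 1 had 32 in common, 69.6% and 65.3% of each list. In all, 54 members (29.8%) were high in at least 2 of these 3 libraries, against 1.66% of tested targets, and 30 members (16.6%) in all 3, against 0.309%. The rule asks for low medians outside LCO 10 mg/L, and members were less abundant than tested targets. Both can favour such high libraries, so the shares over tested targets are not a like background. Across the 181 members, deviations from the group correlated between LCO 1 mg/L replicate 5 and ion replicate 5 with Spearman's rho of 0.77. This was the highest value among pairs of libraries from different groups. Control replicate 1 had 0.76 with LCO 1 mg/L replicate 5 and 0.67 with ion replicate 5. The lowest value was -0.65, between LCO 10 mg/L replicate 2 and control replicate 1. The points are members measured in the same libraries, so these values are a description.

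The values of these 54 members in the remaining libraries are a description, since those libraries entered the rule or the medians behind the 4-fold limit. Their median level over control was 3.21 and 2.95 on the log2 scale in LCO 10 mg/L replicates 5 and 6, and 2.23, 1.63 and 1.32 in replicates 1, 2 and 4. In ion replicate 3 it was 2.96, and in ion replicate 6 it was 0.93, against 0.12 and 0.09 in replicates 1 and 4. None of the 54 was among the 32 separate members. The 116 members that were high in none of the 3 libraries were by that choice more even within LCO 1 mg/L, the ions and control. Their median level ran from 1.37 to 1.71 in the LCO 10 mg/L libraries and from 0.44 to 0.8 at LCO 1 mg/L. It ran from -0.07 to 0.6 in the ions, with replicate 6 highest, and from -0.12 to 0.33 in control. What sets the high pools apart was not tested.

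The contrasts among the 3 groups other than LCO 10 mg/L were not used to choose members. The rule still bears on them, because it holds each of these groups below LCO 10 mg/L and favours targets that are low in the control libraries, which serve both contrasts against control. All were tested with edgeR's quasi-likelihood test over 16163 targets with Benjamini-Hochberg adjustment, and a member was called at an adjusted p of at most 0.05.

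At LCO 1 mg/L against control, 26 members (14.4%) rose, where 5.64% of all tested targets did. None fell, where 3.69% of tested targets did. At an unadjusted p under 0.05 in edgeR 1 member was lower, the DESeq2 Wald test called 1 lower, and limma called 0 lower. The median log2 fold change was 0.42 over members and -0.03 over all tested targets, and 135 of 181 members were above 0. Called members rose by 0.88 to 3.43 on the log2 scale. Without LCO 1 mg/L replicate 5, 10 members were lower (5.52%, against 5.53% of the targets tested in that fit). The absence of lower members thus depended on this library. The values of the groups did not overlap for 28 higher members (15.5%, against 6.29% of tested targets).

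KZS07709 and KZS08864 had the smallest p at the lower dose. It had 37.3, 38.8, 30.7, 34.7 and 40.7 CPM at LCO 10 mg/L and 20.4, 24.3, 25.9, 39.1 and 23.4 CPM at LCO 1 mg/L. It had 7.12, 5.29, 7.81, 14.5 and 6.23 CPM in the ions, and 7.45, 4.13, 8.38, 4.68 and 6.39 CPM in control. Both doses lay above every ion and control library, and the doses overlapped only through LCO 1 mg/L replicate 5. On the log2 scale LCO 1 mg/L exceeded control by 2.04 (SE 0.26, adjusted p 0.00017 in edgeR) and the ions by 1.70 (SE 0.26, adjusted p 0.00012 in edgeR). KZS08864 had 2.68, 2.70, 1.72, 2.29 and 3.57 CPM at LCO 10 mg/L, at most 1.62 CPM (median 1.38) at LCO 1 mg/L, 0.523 to 0.952 CPM in the ions and 0.285 to 0.511 CPM in control. No group overlapped with another, and LCO 1 mg/L stood 1.72 above control on the log2 scale (SE 0.22, adjusted p 0.00017 in edgeR). For these members the 10 mg/L group is the top of an order in which 1 mg/L was already higher than control.

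In the ions against control, the test called 29 members higher (16.0%), where 25.4% of all tested targets were higher, and 11 members lower (6.08%), where 24.7% were lower. The median log2 fold change was 0.31 over members and 0.03 over tested targets. Only 3 higher members had no overlap between the groups (1.66%, against 12.2% of tested targets). Leaving out a control library moved the count of higher members to 47 (replicate 1), 19 (replicate 5) or 18 (replicate 6). The 19 were 10.5% of members, against 24.4% of the targets tested in that fit, and the 18 were 9.94%, against 21.0%. The 47 without control replicate 1 were 26.0% of members, where 22.8% of the targets tested in that fit were higher. Without the 3 libraries nearer to another group 50 members were higher (27.6%, against 25.5% of the targets tested), so the share of higher members was below the background or above it depending on these libraries. The share of lower members was below the background in both of these fits, at 4.42% against 22.0% and 8.29% against 25.7%. The count of lower members was 5 without ion replicate 3 (2.76%, against 22.9%) and 4 without ion replicate 4 (2.21%, against 23.0%). It was 17 without ion replicate 5 (9.39%, against 26.9% of the targets tested in that fit).

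KZS18535 rose in the ions as well. It had 23.7, 26.7, 21.3, 39.8 and 31.7 CPM at LCO 10 mg/L and 11.8, 8.55, 10.6, 18.5 and 14.4 CPM at LCO 1 mg/L. It had 15.5, 14.5, 11.5, 26.8 and 14.9 CPM in the ions, and 10.4, 6.59, 7.47, 5.94 and 6.51 CPM in control. Every ion library lay above every control library, the fitted log2 difference was 1.11 (SE 0.25, adjusted p 0.0013 in edgeR), and ion replicate 5 lay within the LCO 10 mg/L range. KZS03038 had 1.92 to 4.80 CPM at LCO 10 mg/L, 1.62 to 2.23 CPM at LCO 1 mg/L, 0.497 to 2.14 CPM in the ions and 0.354 to 0.659 CPM in control. Its ion libraries overlapped with control and exceeded it by 1.41 on the log2 scale (SE 0.35, adjusted p 0.003 in edgeR).

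KZS17523 moved the other way in the ions. It had 108, 142, 136, 97.6 and 119 CPM at LCO 10 mg/L and 58.5, 63.1, 74.9, 66.2 and 69.0 CPM at LCO 1 mg/L. It had 57.7, 36.3, 56.7, 48.4 and 53.3 CPM in the ions, and 51.5, 68.7, 70.2, 90.8 and 69.7 CPM in control. LCO 10 mg/L was above all other libraries, and the ions were below control with a change of -0.52 on the log2 scale (SE 0.14, adjusted p 0.0046 in edgeR), with control replicate 1 inside the ion range. KZS06908 had 321, 181, 251, 207 and 124 CPM at LCO 10 mg/L and 116, 113, 128, 557 and 349.6 CPM at LCO 1 mg/L. It had 127, 46.4, 29.1, 58.4 and 79.8 CPM in the ions, and 570.2, 69.2, 903, 112 and 115 CPM in control. Control replicates 1 and 4 exceeded every LCO 10 mg/L library, so its ion change of -2.45 (log2, SE 0.68, adjusted p 0.0061 in edgeR) was measured against an uneven control. Its counts were fractional in all 20 libraries, as arises where reads are divided between similar targets.

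Between the lower dose and the ions, 35 members were higher at LCO 1 mg/L (19.3%), where 20.1% of all tested targets were, so this count was close to the background. Lower at LCO 1 mg/L were 6 members (3.31%), where 20.8% of tested targets were. The median log2 fold change was 0.33 over members and 0.02 over tested targets. The count of lower members was 25 without LCO 1 mg/L replicate 5 (13.8%, against 18.3% of the targets tested in that fit). It was 37 without the 3 libraries nearer to another group (20.4%, against 22.7%). Leaving out another library of that dose gave 1 (replicate 1) or 0 (replicate 2, 3 or 6), and leaving out ion replicate 3 or 5 gave 0. In these fits 16.2% to 21.3% of the tested targets were lower.

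KZS14457 was among the members higher at 1 mg/L than in the ions. It had 101, 102, 85.9, 97.5 and 109.9 CPM at LCO 10 mg/L and 59.8, 86.4, 61.3, 71.8 and 64.8 CPM at LCO 1 mg/L. It had 12.3, 15.5, 13.0, 45.8 and 16.4 CPM in the ions, and 29.4, 9.5, 24.7, 12.3 and 12.7 CPM in control. Only LCO 1 mg/L replicate 2 reached LCO 10 mg/L, every LCO 1 mg/L library exceeded every ion library, and the fitted log2 difference was 1.74 (SE 0.35, adjusted p 0.0009 in edgeR). The members lower at 1 mg/L than in the ions with the smallest p were KZS12851 and KZS12404. KZS12404 had 58.1, 32.4, 25.1, 148 and 142 CPM at LCO 10 mg/L and 8.81, 8.45, 8.77, 41.0 and 8.87 CPM at LCO 1 mg/L. It had 8.60, 180.2, 9.40, 180.2 and 25.8 CPM in the ions, and 12.9, 8.86, 9.89, 7.47 and 7.78 CPM in control. Its log2 fold change of -2.40 (SE 0.81, adjusted p 0.024 in edgeR) rested on the high ion replicates 3 and 5. The adjusted p in edgeR was 0.085 without ion replicate 3, 0.07 without ion replicate 5 and 0.057 to 0.06 without LCO 1 mg/L replicate 1, 2, 3 or 6. KZS12851 had 186 to 666 CPM at LCO 10 mg/L, 59.9 to 296 CPM at LCO 1 mg/L, 102 to 912 CPM in the ions and 54.8 to 114 CPM in control. Its change was -1.78 (log2, SE 0.6, adjusted p 0.023 in edgeR), with an adjusted p in edgeR of 0.1 without ion replicate 3, 0.059 without ion replicate 5 and 0.051 to 0.062 without LCO 1 mg/L replicate 1, 2, 3 or 6.

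**Figure D4:**
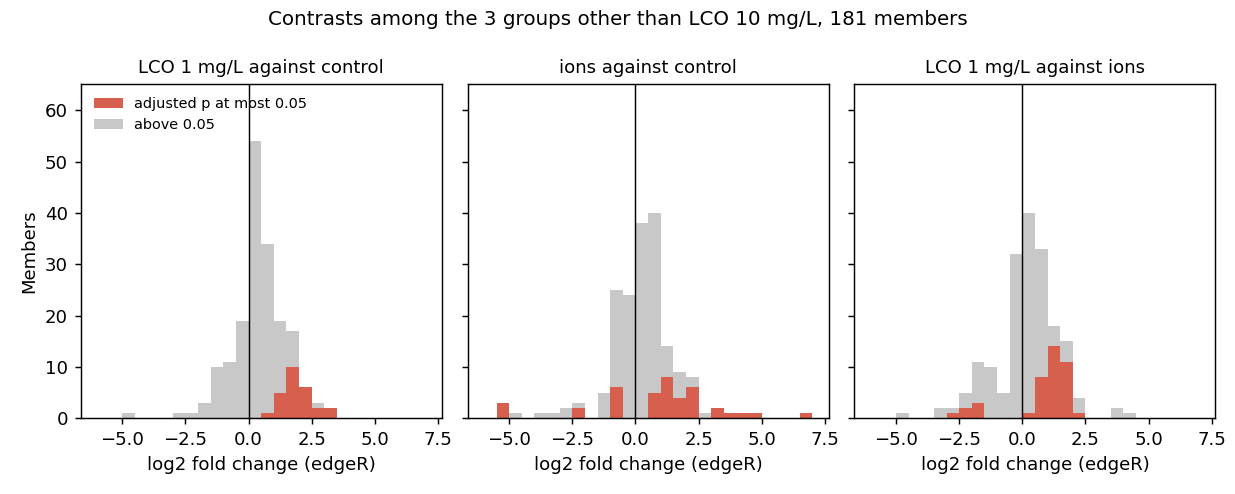
Histograms of the edgeR log2 fold changes of the 181 members in the 3 contrasts that leave out LCO 10 mg/L, with members at an adjusted p of at most 0.05 in red. At LCO 1 mg/L against control the 26 called members all lie above 0, and in the other contrasts called members lie on both sides.

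Against control, 127 members (70.2%) were called neither at LCO 1 mg/L nor in the ions, where 46.8% of tested targets were called in neither. A further 43 members (23.8%) were called higher in at least 1 of them, where 28% of tested targets were. Of these, 12 were higher in both (6.63% of members, against 3.06% of tested targets). At LCO 1 mg/L without a call in the ions there were 14 (7.73%, against 2.29%), and in the ions without a call at LCO 1 mg/L there were 17 (9.39%, against 22.3%). These contrasts share the control libraries, and a missing call does not show that a level was unchanged. For the contrasts that the rule used, the same fit called 112 members higher at LCO 10 mg/L than in control (61.9%, against 13.7% of tested targets). It called 92 higher than in the ions (50.8%, against 11.3%) and 24 higher than at LCO 1 mg/L (13.3%, against 1.58%). These shares describe the choice of members. The 32 separate members were all called against control and against the ions, and 17 of them against LCO 1 mg/L. Against control 7 of the 32 were also called higher at LCO 1 mg/L, where 5.64% of tested targets were. In the ions 1 was called higher than control, where 25.4% of tested targets were, and 5 lower, where 24.7% were. Between the lower dose and the ions, 17 of the 32 were called higher at LCO 1 mg/L and 0 lower. The shares over tested targets were 20.1% and 20.8%. The 32 were picked through the values of these same libraries, so their counts are a description and not a result against the shares over tested targets. In the whole set 22 members were called higher in all 3 contrasts of LCO 10 mg/L (12.2%, against 0.173% of tested targets) and 60 were called higher in none (33.1%, against 77.3%). The 1 member that the fit called lower at LCO 10 mg/L than in control was KZS06786, where 16.7% of tested targets were called lower. It had 4.41, 7.37, 5.57, 6.22 and 7.31 CPM at LCO 10 mg/L and 1079, 3.31, 3.42, 2.24 and 1.19 CPM in control, with control replicate 1 far above the rest, and its fitted log2 fold change was -5.30 (adjusted p 0.039 in edgeR).

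At the median, members had a larger spread between pools than tested targets had, in every group. The median over members of the SD of log2(CPM + 0.5) was 0.397 at LCO 10 mg/L, 0.546 at LCO 1 mg/L, 0.805 in the ions and 0.628 in control. Over all tested targets it was 0.2, 0.206, 0.284 and 0.253 in the same groups. Members were also less abundant, with a median control level of 2.36 CPM against 13.7 CPM over tested targets, and a low level in control is favoured by the rule. The spread was not compared between members and tested targets of like level. Their median length was 1574 bases, against 1866 bases over tested targets. Fractional counts in at least 1 library were found for 52 members (28.7%) and for 24.2% of tested targets.

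Some members lay close together in identifier number, a property the rule did not use, while 123 of the 181 had no other member within 3 numbers. Of the targets 1 number away from a member, 12.3% were members themselves (43 of 349), as were 6.46% of those 2 away and 3.35% of those 3 away, against 0.679% of all targets. Runs with steps of at most 3 held the other 58 members in 23 runs. Whether neighbouring numbers are neighbouring genes was not checked, since no annotation was used. The longest run had 8 members between KZS06863 and KZS06875. All 8 were among the 54 members high in at least 2 of LCO 1 mg/L replicate 5, ion replicate 5 and control replicate 1. Within it KZS06870 had 174, 112, 69.7, 424 and 476 CPM at LCO 10 mg/L and 28.4, 15.9, 27.8, 334 and 31.8 CPM at LCO 1 mg/L. It had 20.7, 154, 5.59, 215 and 30 CPM in the ions, and 294, 0.852, 73.6, 5.78 and 2.29 CPM in control. Of the 5 other targets in this span, 1 was high in at least 2 of these libraries at the 4-fold limit. KZS06867, not a member, stayed under that limit but had 203 CPM in LCO 1 mg/L replicate 5 and 60.6 to 94.7 CPM in the others of that dose. It had 175 CPM in control replicate 1 and 47.8 to 89.0 CPM in the other control libraries. In the run, 6 of the 8 members had fractional counts in 15 or more libraries, so their reads may be divided among similar targets.

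The 3 runs described next held none of those 54 members, although others did. KZR99912, described above, was followed by KZR99913, with 1923, 2566, 2727, 1655 and 2395 CPM at LCO 10 mg/L and 853, 638, 857, 1095 and 937 CPM at LCO 1 mg/L. KZR99913 had 604, 311, 299.6, 442 and 596 CPM in the ions, and 530.3, 719.7, 746, 1096 and 532 CPM in control. KZR99914, the next number, was a member too, with a smallest ratio of 2.92. All 3 had no fractional counts, stood highest at LCO 10 mg/L in every library and lowest in the ions by median. KZS10820 lay between KZS10819 and KZS10821, both members, at medians of 49.0 and 37.8 CPM at LCO 10 mg/L. Their medians were 21.9 and 14.5 CPM at LCO 1 mg/L, 9.45 and 17.1 CPM in the ions, and 12.6 and 12.8 CPM in control. The run from KZS05812 to KZS05814 had control medians of 0.118, 0.104 and 0.0776 CPM. KZS05812 had 13.7, 8.27, 4.75, 3.90 and 7.66 CPM at LCO 10 mg/L and 2.62, 2.03, 1.56, 1.43 and 1.17 CPM at LCO 1 mg/L. KZS05812 had 0.142 to 3.19 CPM in the ions and 0 to 3.20 CPM in control, where replicate 4 held the highest value. No library of the other groups reached LCO 10 mg/L for KZS05812, but ion replicate 6 did for the other members of the run. For KZS05813 it had 3.33 CPM, against 2.6 to 3.54 CPM at LCO 10 mg/L. For KZS05814 it had 2.76 CPM, against 1.67 to 2.59 CPM at LCO 10 mg/L.

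The edge of the set was a matter of small differences. KZS08921 and KZS13271, just inside, had smallest ratios of 1.5 and 1.51, and KZS04463, just outside, had 1.49. KZS04318, also outside, rounds to 1.5. KZS08921 had 85.1 to 387 CPM at LCO 10 mg/L, median 189, and 65.1 to 188 CPM at LCO 1 mg/L, median 125. It had 14.9 to 126 CPM in the ions, median 104, and 50.6 to 276 CPM in control, median 125. KZS13271 ranged from 4.10 to 17.0 CPM at LCO 10 mg/L, 2.79 to 7.81 CPM at LCO 1 mg/L, 0.818 to 8.05 CPM in the ions and 1.51 to 12.2 CPM in control, with fractional counts in all 20 libraries. Outside the edge, KZS04318 ranged from 90.8 to 164 CPM at LCO 10 mg/L, 46.4 to 149.9 CPM at LCO 1 mg/L, 85.6 to 136 CPM in the ions and 34.3 to 115 CPM in control. KZS04463 ranged from 1.22 to 5.58 CPM at LCO 10 mg/L, 0.199 to 3.51 CPM at LCO 1 mg/L, 1.28 to 2.98 CPM in the ions and 0.409 to 2.16 CPM in control. In all 4 the groups overlapped, inside the edge as outside it.

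The same rule was applied with each group in the place of LCO 10 mg/L. It found 47 targets for LCO 1 mg/L, 827 for the ions and 646 for control, and in the opposite direction 183 targets below every other group at LCO 10 mg/L. A set of 181 targets above all other groups was therefore neither the largest nor the smallest that the rule gives in these libraries.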

How the data were processed

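RNA of whole daphnids was measured in 20 libraries. Estimated counts were deposited per target, per the file headers, as unnormalised values that need not be whole, beside TPM, which per the file headers were deposited as abundances scaled by length and to a common total. Neither labels nor headers name the counter, annotation or build (not given in the sources used here). Samples were grouped by title. CPM was computed as the estimated count times 1000000 over the library sum. Members were chosen by the rule given in the text, and the members, lists and named-member rule were chosen with earlier results of these data known. Named members are the 2 highest or lowest by ratio, level, gap, SD, closeness to the limit of 1.5 and p in each independent contrast. Members named outside it (KZS06786, KZS06870, KZS05812 and the neighbours KZR99913, KZR99914, KZS10819 and KZS10821, with the runs in the closing section) were chosen after their values were seen. Groups by product name could not be used, since no identifier was paired with a name.

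Rounded counts were analysed in R 4.3.3 with edgeR 4.0.16: filterByExpr (minimum count 10, minimum total 15), TMM scaling, 1 quasi-likelihood fit of all 20 libraries, two-sided tests, Benjamini-Hochberg adjustment over 16163 targets and a threshold of 0.05. The fit and the rule were checked on simulated data. No pair of replicates was identical, and over targets the chi-square divided by its degrees of freedom was at least 21.6 in every replicate pair, so each library counted once. The smallest estimated count of a member in an LCO 10 mg/L library was 17. Alternatives were other scalings, offsets, ratios and filters, TPM in place of CPM, DESeq2 1.42.0, limma 3.58.1 on log2(TPM + 1), a replicate block and leaving out libraries. Figures were drawn with matplotlib 3.10.9.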

Additional observations from a re-analysis of the deposited data

Results flagged for a closer look

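Of 88 groups of 5 values examined for a library far from the rest of its group, 8 passed the critical ratio of gap to range, 0.71. Chance passes about 1 in 20 groups that were not picked by their values. These groups are the level of the set and members named by their values, so that rate cannot be set against the 8. For the level of the whole set, LCO 1 mg/L replicate 5 lay above the other libraries of its group with a ratio of 0.798. The same library was the high one in KZS12404 (0.97), KZS08924 (0.819) and KZS08039 (0.725). Control replicate 1 was high in KZS08924 (0.758), and control replicate 4 was high in KZS19005 (0.799). Ion replicate 5 was high in KZS14457 (0.785) and low in KZS15439 (0.712).

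LCO 1 mg/L and the ions differed in a test of the difference itself, with 35 members higher (19.3%, against 20.1% of tested targets) and 6 lower (3.31%, against 20.8%) at LCO 1 mg/L. The first share is close to the background, and the 6 ran from 0 to 25 with 1 library left out. Among named members the log2 fold change of LCO 1 mg/L over the ions was 1.70 for KZS07709, 1.74 for KZS14457, -1.78 for KZS12851 and -2.40 for KZS12404.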

How the results depend on the processing

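The rule kept 181 targets. With the same level limits it kept 65 at a ratio of 2, 449 at the lower ratio tried and 118 with means in place of medians (94 of them members), and 126 to 243 with 1 library left out. TPM in place of CPM gave 162 targets, of which 113 were members. TMM scaling gave 168 (167 members), an offset of 1 gave 169 (162 members), a minimum of 5 gave 124 (124 members) and equal depth gave 186 (169 members). Leaving out control replicate 1, LCO 1 mg/L replicate 5 and ion replicate 5 together gave 220, of which 168 were members. Without ion replicate 1, 4 or 6, the log2 of the smallest ratio of KZS08924 was -2.67, -2.67 and -2.66 and that of KZS08039 was -0.99, -0.99 and -0.9, while without LCO 10 mg/L replicate 2 they were 4.9 and 2.98. The level of LCO 10 mg/L replicate 2 was 1.44 with TPM. Members separate from other libraries numbered 50 without the 3 libraries.

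Members higher at LCO 1 mg/L than control numbered 15 at a mean CPM of at least 5, which tests 112 members (13.4%, against 6.63%). They numbered 18 to 30 with 1 library left out. Lower ones numbered 2 without the 3 libraries (1.1%, against 5.89%) and 1 by DESeq2 (0.552%, against 6.4%). With 1 library left out they numbered 0 to 10. Members higher in the ions than control numbered 15 with only those groups fitted (8.88%, against 19.8%). They numbered 50 without the 3 libraries (27.6%, against 25.5%) and 18 to 47 with 1 library left out. Lower ones numbered 7 without a filter (3.87%, against 17.6%) and 5 with only those groups (2.96%, against 22.2%). They numbered 4 by limma (2.21%, against 20.8%) and 4 to 17 with 1 library left out. Members lower at LCO 1 mg/L than in the ions numbered 1 with only those groups (0.575%, against 17.8%). They numbered 37 without the 3 libraries (20.4%, against 22.7%) and 0 to 25 with 1 library left out. The 28 to 44 higher ones stayed within 1.5 times of 35. In that contrast KZS12851 and KZS12404 lost their calls with only those groups fitted (adjusted p 0.073 and 0.07), and KZS12404 by limma (0.12) and with a replicate block (0.064). The cause of these shifts was not tested.

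Replicate numbers were not used to pair the samples in the main fit. Of 25 same-numbered pairs, 9 had deviations correlated over 0.1 (range -0.43 to 0.49). Pairs with different numbers were not set beside them, so a factor shared by some same-numbered libraries was not tested. With the replicate number as a block, 11 members were higher in the ions than control (6.08%, against 21.6% of tested targets), where the main fit had 29. In the same contrast 4 were lower (2.21%, against 21.8%). At LCO 1 mg/L against control 18 were higher (9.94%, against 3.67%) and 0 lower (against 1.61%). At LCO 1 mg/L against the ions 34 were higher (18.8%, against 17.2%) and 2 lower (1.1%, against 17.2%). Low counts limit members under 1 CPM.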

Other observations

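Further runs of neighbouring identifiers were read after their values were seen, as values only. KZS05168 lay between KZS05167 and KZS05169, both members. KZS05167 had a median of 363 CPM at LCO 10 mg/L, 132 CPM at LCO 1 mg/L, 171 CPM in the ions and 104 CPM in control. KZS05169 had a median of 1277 CPM at LCO 10 mg/L, 382 CPM at LCO 1 mg/L, 524 CPM in the ions and 316 CPM in control. The run from KZS10164 to KZS10166 was lower in control than in every exposed group by median. Its middle member, KZS10165, had 424, 414, 464, 429.5 and 528 CPM at LCO 10 mg/L and 435, 266, 283, 289 and 186 CPM at LCO 1 mg/L. KZS10165 had 187, 392, 236, 119.9 and 212 CPM in the ions, and 147, 268, 98.6, 171 and 88.0 CPM in control, so that 1 library at LCO 1 mg/L reached the LCO 10 mg/L range.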
